A study of Mus musculus with 4 samples.

Results

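The 49 genes described here lie around Trp53 on mouse chromosome 11. They were taken from the deposited gene table by a list of symbols of genes within about 1 Mb of Trp53, with Trp53 itself and Aurkb left out. All 49 were found among the 24346 genes of the table. By RefSeq positions on GRCm38 they span bases 69070809 to 70106187, reaching 510 kb below Trp53 at Tmem107 and 514 kb above it at Asgr2. Of the 49, 13 lie on the side of lower coordinates and 36 on the side of higher coordinates. Expression was compared between endothelial cells labelled ECp53KO (2 libraries, ECp53KO_170 and ECp53KO_172) and cells labelled wild type (2 libraries, Ctrl_178 and Ctrl_182). In both groups the cells were sorted by flow cytometry from hearts of young C57BL/6 mice and were freshly isolated. ECp53KO is read as a loss of p53 in endothelial cells from the title of the series. The labels name neither the recombinase and its promoter nor the deleted exons. They also do not state that each library is a different mouse. The p-values therefore rest on the spread between libraries, estimated in part from all tested genes.

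The region around Trp53 is dense with genes of unrelated function: it holds components of transcription and translation, of the cilium, of autophagy and secretion, and ligands of the tumour necrosis factor family. Trp53 encodes p53, a transcription factor that halts the cell cycle or triggers cell death after DNA damage. Wrap53 stands head to head with it and encodes a protein that carries telomerase and small Cajal body RNAs to Cajal bodies.

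No neighbour passed the test. FPKM are fragments normalised to gene length and to depth. Of the 49 members, 38 averaged 1 FPKM or more and were tested, and 11 did not reach that mean, with a highest single value of 1.43 FPKM. Of all 49, 5 averaged at least 100 FPKM, 22 lay from 10 to 100 and 11 from 1 to 10. Among the 38, 0 were called higher and 0 lower in ECp53KO at an adjusted p under 0.05 (limma on log2(FPKM + 1), Benjamini-Hochberg adjustment over 11332 genes), where 0.0265% of all tested genes were called higher and 0.0882% lower. The lowest adjusted p of a member was 0.864. At an unadjusted p under 0.05, 0 members were higher and 2 were lower, Per1 and Kctd11, where 1.97% and 2.82% of all tested genes were. In a fit without small RNA loci (11105 genes), again 0 members were called higher and 0 lower, where 0.027% and 0.036% of genes were called. There, 1 member was higher (Tnfsf12) and 5 were lower (Cd68, Kctd11, Per1, Polr2a and Tmem107) at an unadjusted p under 0.05, where 2.55% and 3.61% of genes were. The median log2 fold change (ECp53KO minus Ctrl) of the 38 was -0.08, with 16 above 0 and 22 below. That of all tested genes was 0.01. Among members averaging 5 FPKM or more the median was 0.011, where that of all such genes was 0.029. Both libraries of ECp53KO lay above both of Ctrl in 4 members (10.5%; 19.1% of all tested genes) and below both in 10 (26.3%; 16.8% of all tested genes). With each library rescaled to the same FPKM sum, they were 3 members above (7.89%; 10.9% of all tested genes) and 11 below (28.9%; 22.3% of all tested genes).

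The targeted gene, which is no member, was lower in both ECp53KO libraries. Trp53 (69580348 to 69591873, plus strand) had 4.41 FPKM in ECp53KO_170 and 2.45 FPKM in ECp53KO_172, against 52.1 and 28.8 FPKM in Ctrl_178 and Ctrl_182. The groups did not overlap, and the log2 fold change was -3.20 ± 0.36 (SE), with a 95% interval of -4.12 to -2.28. Its adjusted p was 0.146 in limma over all tested genes and between 0.0129 (small RNA loci left out) and 0.620 (no filter) over the 12 alternatives. Every one of the 38 members' 95% intervals lay above the Trp53 estimate, and 37 lay above the upper bound of its interval; that of Cd68 reached down to -2.42. For 29 of the 38 the interval stayed within 1 log2 unit of 0 in both directions. These intervals are for 1 gene each and are not adjusted for the number of genes.

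**Figure D1:**
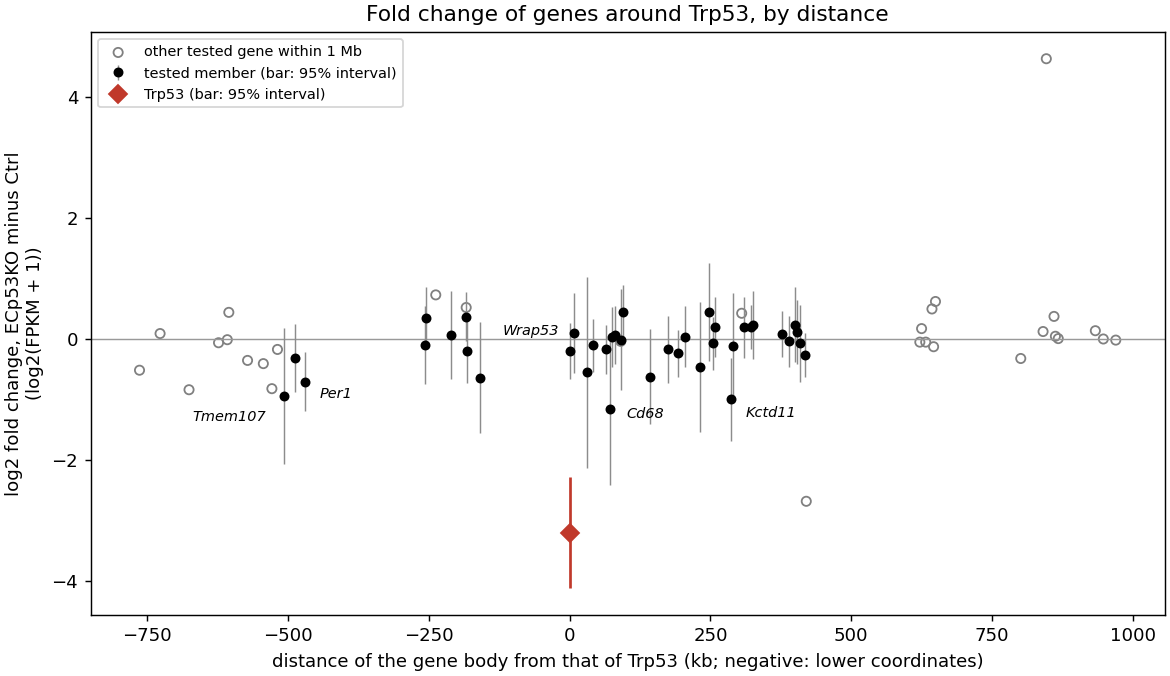
Log2 fold change, ECp53KO minus Ctrl, of each tested member (filled points, with limma 95% intervals) against its distance from Trp53 in kb, other tested genes within 1 Mb as open points and Trp53 as a diamond. Trp53 sits at -3.20, the members range from -1.16 to 0.45, and the outlying open points at 4.63 and -2.69 are Mir7115 and Mir324.

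Libraries differed in depth and in what else they held. Depth was estimated at about 11400000 and 9800000 fragments in the ECp53KO libraries, against 11000000 and 22500000 in the Ctrl libraries. The 10 endothelial markers summed to 6196 and 5706 FPKM in the ECp53KO libraries, against 5670 and 5698 FPKM in the Ctrl libraries. Cardiomyocyte markers summed to 388 and 247 FPKM against 246 and 220, and erythroid markers to 456 and 95.6 FPKM against 64.4 and 37.4, so ECp53KO_170 was highest in both. In bulk libraries such as these, fewer cells of a type and less RNA per cell cannot be told apart.

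The closest neighbour, Wrap53 (69561754 to 69580250, minus strand), had 6.01 FPKM in ECp53KO_170 and 4.97 FPKM in ECp53KO_172, against 6.76 and 6.17 FPKM in Ctrl_178 and Ctrl_182. Both ECp53KO libraries lay below both Ctrl libraries, by a narrow margin. The log2 fold change was -0.21 ± 0.18 (SE), with a 95% interval of -0.67 to 0.26 and an adjusted p of 0.870 in limma. It was -0.32 without ECp53KO_170 and -0.09 without ECp53KO_172. The ratio of Wrap53 to Trp53 FPKM was 1.36 and 2.03 in the ECp53KO libraries and 0.130 and 0.214 in the Ctrl libraries. The 97 bases between the 2 gene bodies are shown because the 2 genes start on either side of them; they run from chr11:69580251-69580347 on the plus strand of GRCm38 and have a GC content of 57.7%. Capitals mark letters that match the p53 half-site consensus.
Wrap53 to Trp53: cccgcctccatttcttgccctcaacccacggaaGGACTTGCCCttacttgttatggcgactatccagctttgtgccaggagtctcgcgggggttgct

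**Figure D2:**
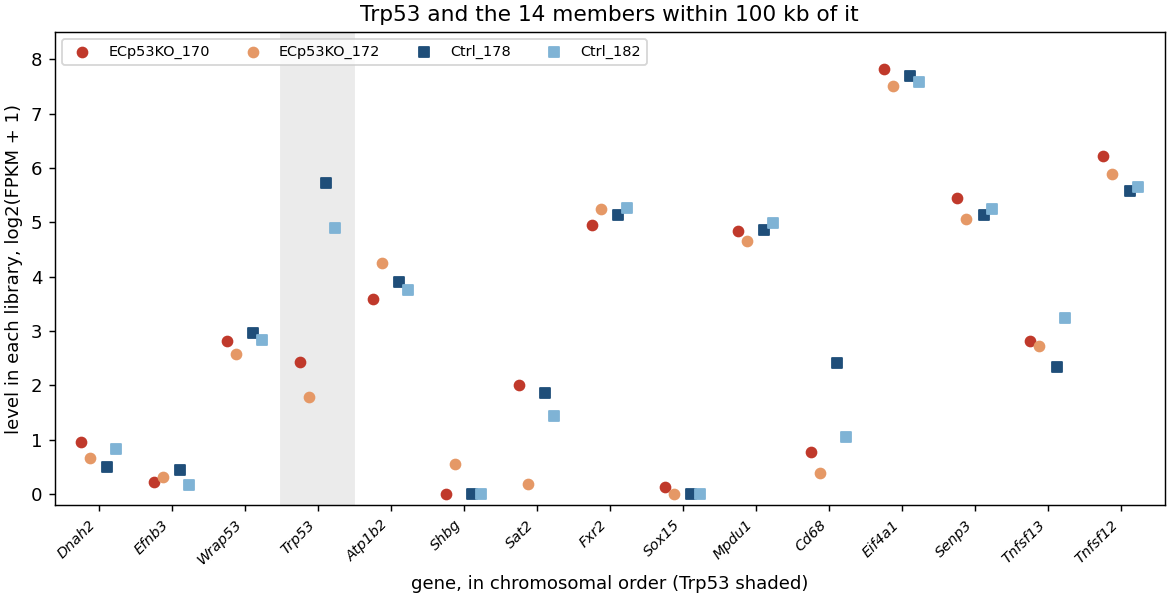
Level in each library, as log2(FPKM + 1), of the 14 members within 100 kb of Trp53 and of Trp53 itself (shaded), in chromosomal order, with ECp53KO circles left of Ctrl squares. The 4 Wrap53 points, 4.97 to 6.76 FPKM, lie close together, while both ECp53KO points of Trp53 lie far below its Ctrl points.

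Among the nuclear and chromatin members, 8 of 9 were tested, with a median log2 fold change of -0.05. Without overlap, 1 was higher and 3 were lower in ECp53KO (12.5% and 37.5%). For this and the later role groups, the shares of all tested genes without overlap are 19.1% higher and 16.8% lower. Per1, a repressor of the circadian clock, was at 35.9 and 47.8 FPKM in the ECp53KO libraries, against 69.5 and 67.1 FPKM in the Ctrl libraries. It was lower in both ECp53KO libraries, and its log2 fold change was -0.71 ± 0.19 (SE; limma adjusted p = 0.864), with a 95% interval of -1.19 to -0.22. Kdm6b, a demethylase of histone H3 lysine 27, was at 9.97 and 21.5 FPKM against 21.9 and 25.3. The ECp53KO_172 value was close to that of Ctrl_178, and the log2 fold change was -0.64 ± 0.36. Polr2a, the largest subunit of RNA polymerase II, was at 14.9 and 28.3 FPKM against 31.6 and 33.1 (-0.62 ± 0.31). Gps2, a subunit of the NCoR corepressor complex, was at 68.2 and 65.1 FPKM against 58.1 and 57.8 (0.20 ± 0.14). The chromatin remodeller Chd3, the zinc finger repressor Zbtb4, the Elongator subunit Elp5 and Phf23 had overlapping groups, with log2 fold changes of 0.06, -0.17, 0.08 and 0.11. Sox15, a transcription factor, was listed at 0.0871 FPKM in ECp53KO_170 and at 0 in the other libraries.

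Translation and RNA members were 5, of which 4 were tested (median -0.04; 0 higher and 1 lower without overlap, which was Wrap53). Eif4a1, the RNA helicase of translation initiation, was at 226 and 181.6 FPKM in the ECp53KO libraries against 206 and 190 FPKM in the Ctrl libraries. Eif5a, a translation elongation factor, was at 268 and 205 FPKM against 218 and 183. Both genes overlapped between groups, with log2 fold changes of 0.03 and 0.23. Fxr2, an RNA-binding relative of the fragile X protein, was at 29.8 and 36.9 FPKM against 34.1 and 37.4 (-0.10). Ybx2 stayed under 1 FPKM in every library.

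All 4 members of vesicle transport and autophagy were tested, with a median of 0.06. Trappc1, a subunit of the TRAPP tethering complexes, was at 65.4 and 48.4 FPKM in the ECp53KO libraries, against 46.9 and 41.2 FPKM in the Ctrl libraries. Both ECp53KO values were higher, the second by little, and the log2 fold change was 0.35 ± 0.20 (SE). Gabarap, an Atg8-family protein of autophagosomes, was at 263 and 181 FPKM against 172.05 and 199, with overlap. The SNARE protein Vamp2 and the Arf GTPase-activating protein Acap1 had log2 fold changes of -0.31 and -0.12, also with overlap.

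Of 4 cilium and centrosome members, 3 were tested (median -0.10). Tmem107, a protein of the ciliary transition zone and the outermost member on the lower side, was at 1.17 and 0.705 FPKM in the ECp53KO libraries, against 4.57 and 1.46 FPKM in the Ctrl libraries. Both ECp53KO libraries were lower, but the distance between the 2 Ctrl libraries was wide. The log2 fold change was -0.94 ± 0.44 (SE), -0.35 without Ctrl_178 and -1.53 without Ctrl_182. These FPKM values correspond to an estimated 16.9 and 8.8 fragments in the ECp53KO libraries and 63.4 and 41.4 in the Ctrl libraries. The centrosomal protein Cntrob and Neurl4 overlapped between groups (-0.10 and 0.19), and the axonemal dynein Dnah2, not tested, was at 0.940 and 0.589 FPKM against 0.408 and 0.786.

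Of 12 surface, channel and synapse members, 5 were tested (median -0.24; 0 higher and 2 lower without overlap). Cd68, a lysosomal glycoprotein of macrophages, was at 0.702 and 0.307 FPKM in the ECp53KO libraries, against 4.31 and 1.08 FPKM in the Ctrl libraries, an estimated 9.9 and 3.7 fragments against 58.3 and 29.9. Its log2 fold change was -1.16 ± 0.49 (SE), the lowest of any member, with a 95% interval of -2.42 to 0.10. Without Ctrl_178 it dropped under the expression minimum, and without Ctrl_182 the value was -1.83. The 10 macrophage markers fixed for comparison summed to 10.3 and 7.87 FPKM in the ECp53KO libraries against 8.92 and 6.46 FPKM in the Ctrl libraries, with Fcgr1 at 0 in all 4. These sums overlapped between the groups.

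Chrnb1, a subunit of the muscle acetylcholine receptor, was at 16.7 and 16.6 FPKM in the ECp53KO libraries, against 21.1 and 18.5 FPKM in the Ctrl libraries (-0.24 ± 0.15). Atp1b2, a beta subunit of the sodium and potassium pump that lies 7.86 kb past the end of Trp53, was at 11.05 and 18.2 FPKM against 14 and 12.4. The groups overlapped, and the log2 fold change was 0.10 with an adjusted p of 0.948 in limma. It was 0.43 without ECp53KO_170 and -0.24 without ECp53KO_172. Nlgn2 and Plscr3 overlapped too (-0.47 and -0.08). The remaining 7 were not tested. Among them, Slc2a4, the insulin-responsive glucose transporter, was at 1.43 and 0.893 FPKM against 0.486 and 0.457, and the hepatic lectin subunit Asgr1 at 0.688 and 0.531 against 0.321 and 0.218, both higher without overlap. With no filter on low values, their unadjusted limma p was 0.0292 and 0.0257 and their adjusted p 0.853. In that setting 6 members (12.2%) and 16.3% of all genes were higher without overlap. The Asgr1 values stand for an estimated 10.3 and 6.8 fragments in the ECp53KO libraries, against 4.6 and 6.4 in the Ctrl libraries. The potassium channel subunit Kcnab3, the synaptic scaffold Dlg4 and the tight junction protein Cldn7 reached at most 1.11, 0.504 and 0.216 FPKM. Hepatocyte markers, at 66.4 and 36.0 FPKM against 29.7 and 14.3, were likewise higher in both ECp53KO libraries. Cardiomyocyte markers (sums above) were clearly higher only in ECp53KO_170. Their sum was 247 FPKM in ECp53KO_172 against 246 in Ctrl_178, and their mean log2(FPKM + 1) was 3.62 against 3.68. The part of either marker set in these members' values was not tested. The ephrin ligand Efnb3, 19.2 kb from Trp53, was at 0.162 and 0.248 FPKM against 0.366 and 0.123, and Asgr2, the outermost member on the higher side, was at 0.139 and 0.400 FPKM against 0.218 and 0.

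All 9 ligand and signalling members were tested (median -0.01; 1 higher and 1 lower without overlap). Tnfsf12 encodes TWEAK, a cytokine of the tumour necrosis factor family, and was at 73.8 and 58.7 FPKM in the ECp53KO libraries, against 46.9 and 49.6 FPKM in the Ctrl libraries. Both ECp53KO libraries were higher, and the log2 fold change was 0.44 ± 0.18 (SE; limma adjusted p = 0.864). The adjacent Tnfsf13, which encodes APRIL, was at 6.04 and 5.64 FPKM against 4.03 and 8.46 and overlapped. Kctd11, an adaptor of cullin ubiquitin ligases that restrains Hedgehog signalling, was at 3.20 and 5.76 FPKM against 9.22 and 10.1. Its log2 fold change was -0.998 ± 0.27, with a 95% interval of -1.68 to -0.31. Tmem88, a membrane protein that binds Dishevelled and restrains Wnt signalling, was at 277 and 253 FPKM against 342 and 272, and the groups overlapped only through the values 277 and 272. The SUMO protease Senp3 was at 42.6 and 32.5 FPKM against 34.3 and 37.0. Fgf11, Dvl2, Tnk1 and Ctdnep1 had log2 fold changes of 0.04, -0.07, 0.20 and -0.04.

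Of 6 metabolic and other members, 5 were tested (median -0.17; 1 higher and 2 lower without overlap). Cyb5d1, a protein with a cytochrome b5 domain, was at 31.6 and 29.96 FPKM in the ECp53KO libraries, against 25.6 and 21.7 FPKM in the Ctrl libraries (0.37 ± 0.16). Acadvl, the first enzyme of mitochondrial oxidation of very long chain fatty acids, was at 36.3 and 35.4 FPKM against 41.5 and 45.1 (-0.26 ± 0.14). Mpdu1, needed for mannose donors in protein glycosylation, was at 27.7 and 24.2 FPKM against 27.9 and 30.9 (-0.17). Tmem256, a small membrane protein, was at 253 and 147 FPKM against 164 and 122, and its log2 fold change of 0.45 was the highest of any member, with overlapping groups. Sat2, a relative of the polyamine acetyltransferases, was at 3.001 and 0.138 FPKM against 2.63 and 1.70. The ECp53KO_172 value of Sat2 stands for an estimated 1.4 fragments, and the log2 fold change of -0.55 was -1.46 without ECp53KO_170 and 0.35 without ECp53KO_172. Shbg, the sex hormone-binding globulin, was listed at 0.466 FPKM in ECp53KO_172 and at 0 in the other 3 libraries.

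**Figure D3:**
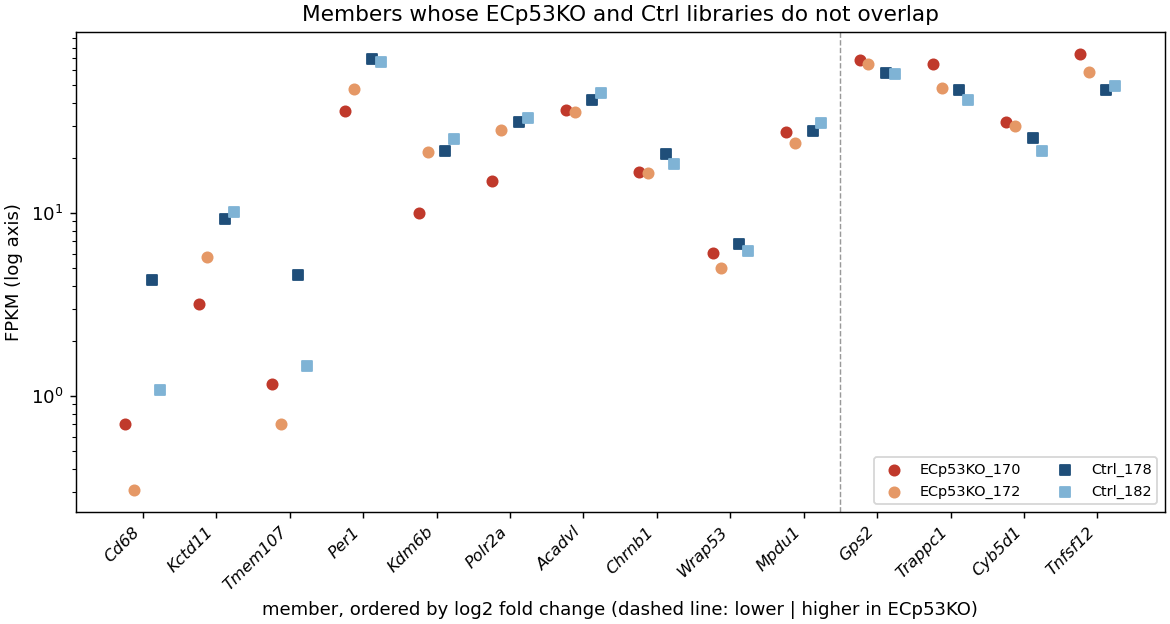
FPKM in each library (log axis) of the 14 tested members without overlap between the groups, ordered by log2 fold change, with ECp53KO circles left of Ctrl squares. In 4 of them both ECp53KO points lie above both Ctrl points and in 10 they lie below.

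Fold changes were also read by position. The median log2 fold change was -0.06 in 10 members within 100 kb of Trp53, -0.19 in 10 members from 100 to 250 kb and -0.06 in 18 members beyond 250 kb. On the lower side it was -0.20 (10 members) and on the higher side -0.03 (28 members). Across the 38 genes, which are not independent replicates, Spearman's rho between distance and the size of the log2 fold change was 0.09, that between distance and the signed log2 fold change 0.06, and that between position along the chromosome and the signed log2 fold change 0.30. Other tested genes within 1 Mb had a median of -0.01 (30 genes), and the other tested genes of chromosome 11 had a median of 0.01 (922 genes). Among the 30, 7 were higher in ECp53KO without overlap (23.3%, where 19.1% of all tested genes were). There, 1 was lower without overlap (3.33%, where 16.8% of all tested genes were). Of these other genes, 5 lie inside the span of the members, with a median of 0.42. Without overlap, 3 of the 5 were higher (60%) and 0 lower.

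The median absolute difference over the 38 members was 0.20 between groups, 0.34 within ECp53KO and 0.17 within Ctrl, on the log2 scale. In 31 of 38 members (81.6%) the difference between groups was smaller than the larger difference within a group, close to the 77.7% of all tested genes. The difference between groups is one of means over 2 libraries and is set against the larger of 2 differences between single libraries.

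Transcript length went with these differences between libraries. In ECp53KO_170 the deviation of a member from its mean over the other libraries was lower for longer transcripts. Spearman's rho was -0.67 across the members and -0.40 across all genes. It was 0.61 and 0.30 in ECp53KO_172, 0.14 and 0.14 in Ctrl_178, and 0.44 and 0.21 in Ctrl_182. Each library was set against the mean of the others, so the values of the libraries are not independent. All 8 members longer than 4000 nucleotides were lower in ECp53KO_170 than in the other libraries (median -0.61), and the 30 shorter ones had a median of 0.01. Without ECp53KO_170, the log2 fold change of Kdm6b was -0.12, of Polr2a -0.19, of Per1 -0.51 and of Kctd11 -0.65. With each library's length trend removed, they were -0.56, -0.54, -0.68 and -1.01. The 4 members higher without overlap have transcripts of 759 to 1435 nucleotides. With the trend removed, Tnfsf12 was at 0.33, Cyb5d1 at 0.21, Trappc1 at 0.16 and Gps2 at 0.08. Cyb5d1 and Gps2 then overlapped between groups. In that setting 3 members were higher without overlap (7.89%; 19.7% of all tested genes) and 11 were lower (28.9%; 18.0%). Nlgn2 was at 0.16, Tmem256 at 0.06 and Trappc1 at 0.14 without ECp53KO_170.

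**Figure D4:**
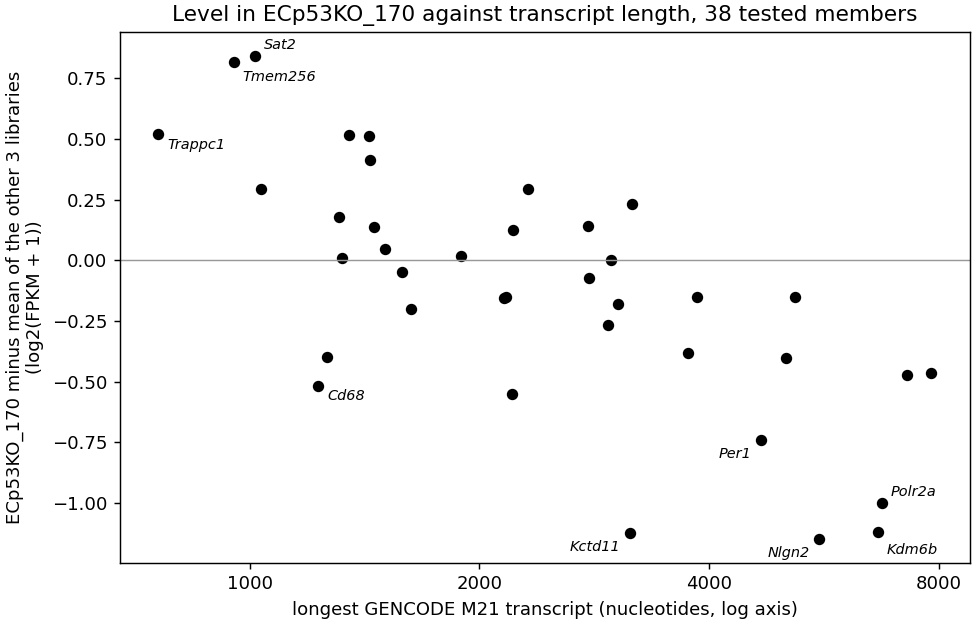
Deviation of each tested member in ECp53KO_170 from its mean over the other libraries (log2 scale) against transcript length in nucleotides (log scale). The 8 members above 4000 nucleotides all lie below 0.

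Reads of overlapping genes could not be separated by strand, since the library kit keeps none, per the labels' protocols. Of the 49 members, 14 overlap another gene of the table, 7 of the 10 pairs on opposite strands. Plscr3 and Tnk1 share 1496 bases, Gps2 and Eif5a 345, Elp5 and Ctdnep1 280, and Tmem88 and Naa38, which is no member, 156, so their values are uncertain to that extent. The read-through locus Tnfsfm13 covers both Tnfsf12 and Tnfsf13 on the same strand.

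The 4 members with the lowest fold changes, Cd68, Kctd11, Tmem107 and Per1, had RefSeq promoter windows. The 250 bases before a start of each are printed here because these are the members furthest from 0. Capitals mark a p53 half-site in Cd68 and Tmem107 and the E-box CACGTG, its own reverse complement, in the first Per1 window. Kctd11 and the second Per1 window (chr11:69099902-69100151, plus strand, not printed) hold neither. Both Per1 windows lie inside the Per1 gene body, which runs from 69095108 to 69109965. The half-site consensus was found in 4 of 35 members with a window (11.4%), Wrap53, Tmem107, Cd68 and Asgr2, and in 8.20% of all genes with one. The E-box was found in 6 of 35 members (17.1%), Wrap53, Per1, Eif4a1, Eif5a, Dvl2 and Asgr2, and in 6.86% of all genes. Only the strand of each window was searched, which covers both strands because each consensus is its own reverse complement. The members' windows outnumber their genes, and a match is a description of letters only. Counted by window, the half-site was in 7.55% of 53 member windows and 7.13% of all windows. The E-box was in 15.1% of member windows and 6.02% of all windows. The windows are Cd68 at chr11:69666171-69666420 on the minus strand, Kctd11 at chr11:69880986-69881235 on the minus strand, Tmem107 at chr11:69070559-69070808 on the plus strand and the first Per1 window at chr11:69098699-69098948 on the plus strand, all GRCm38.
Cd68: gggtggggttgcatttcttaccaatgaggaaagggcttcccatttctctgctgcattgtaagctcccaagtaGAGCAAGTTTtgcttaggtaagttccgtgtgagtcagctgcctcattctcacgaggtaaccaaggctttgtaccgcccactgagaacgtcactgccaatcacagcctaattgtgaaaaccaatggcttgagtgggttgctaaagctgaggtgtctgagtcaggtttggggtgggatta
Kctd11: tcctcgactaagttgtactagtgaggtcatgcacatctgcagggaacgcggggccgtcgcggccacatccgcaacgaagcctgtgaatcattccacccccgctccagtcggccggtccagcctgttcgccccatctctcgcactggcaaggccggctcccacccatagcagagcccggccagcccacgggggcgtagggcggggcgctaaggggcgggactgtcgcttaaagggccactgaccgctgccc
Tmem107: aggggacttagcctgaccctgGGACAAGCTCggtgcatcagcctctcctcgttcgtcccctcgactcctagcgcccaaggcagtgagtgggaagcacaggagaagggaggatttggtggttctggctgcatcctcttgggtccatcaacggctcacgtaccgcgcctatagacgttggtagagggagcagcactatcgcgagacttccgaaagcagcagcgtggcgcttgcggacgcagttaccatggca
Per1: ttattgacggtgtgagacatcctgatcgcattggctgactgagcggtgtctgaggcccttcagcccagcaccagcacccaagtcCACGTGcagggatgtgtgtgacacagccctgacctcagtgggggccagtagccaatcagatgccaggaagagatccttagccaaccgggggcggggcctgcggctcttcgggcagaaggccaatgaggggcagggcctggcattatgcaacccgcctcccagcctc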

How the data were processed

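RNA was measured in 4 libraries of heart endothelial cells, 2 labelled ECp53KO and 2 labelled Ctrl. The authors deposited 1 table of FPKM values (fragments normalised to gene length and to depth) for 24346 genes. Per the submitters' processing notes, the tools were TopHat2 2.1.0, Cufflinks 2.2.1, Trimmomatic 0.36, FastQC 0.11.5 and bcl2fastq 2.17, with build mm10 and no roles stated. A gene annotation was not given in the sources used here. A count test needs counts and was therefore left out.

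Values were taken as log2(FPKM + 1), which understates changes of low genes. The 11332 genes averaging 1 FPKM or more were tested with limma 3.58.1 in R 4.3.3, trend fitted, two-sided, Benjamini-Hochberg adjusted, threshold 0.05, with 2 residual and 3.15 prior degrees of freedom. An exact permutation test of 2 against 2 cannot go below 0.333. Positions came from RefSeq GRCm38.p6 (23143 symbols matched directly, 1086 by synonym, 117 not), and strand and longest transcript from GENCODE M21. Depth estimates rest on the commonest FPKM times length in 1063 low genes, taken as 1 fragment. Loci of small RNAs hold 19.0% to 22.2% of summed FPKM, and a value of 0 can be a failed estimate. The fit was tested on simulated data without small RNA loci. The main fit includes these loci. The simulation also gave each gene a spread drawn at random from the real genes. It therefore held no link between level and spread and no trend with transcript length. In these respects it does not cover the main fit. Members, role groups and lists were chosen with earlier results of these data known. Named members are those within 100 kb of Trp53, the largest folds without overlap, the 5 most expressed, the 2 largest folds and the outermost on each side; the rest are given by role group, and Slc2a4 and Asgr1 were singled out after their values were seen. Alternatives covered the pseudocount, filters, scaling, small RNA loci, robust shrinkage, transcript length and each library left out.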

Additional observations from a re-analysis of the deposited data

How the results depend on the processing

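No member was called in either direction under any of the 12 alternatives in limma. Over all genes, those called higher numbered 5 with a pseudocount of 0.1, 1 with no filter and 5 with robust shrinkage, and those called lower numbered 4 without small RNA loci, against 3 and 10. Leaving out each library in turn gave 1 to 21 higher and 12 to 53 lower. The members' median log2 fold change was 0.011 for genes averaging 5 FPKM or more, where that of all such genes was 0.029. On the TPM scale the members' median was -0.18, where that of all genes was -0.10 and that of other genes within 1 Mb -0.11. Without one library, members without overlap numbered 9 to 12 higher (23.7% to 31.6%, where 32.7% to 42.5% of all tested genes were) and 13 to 19 lower (34.2% to 50%, where 29.3% to 35.8% were), with 1 library to clear in place of 2 on that side. The members' median ran from -0.11 to -0.03, that of other genes within 1 Mb from 0.01 to 0.07 and Trp53 from -3.62 to -2.79. A library left alone in its group is assumed to vary like the other group. The Trp53 value of -3.20 passed the threshold without small RNA loci (adjusted p = 0.0129) and with robust shrinkage (adjusted p = 0.0412). The labels used here state no pairing of ECp53KO with Ctrl libraries, so no paired analysis was made.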

Other observations

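Of the other tested genes within 1 Mb of Trp53, Alox12 and Naa38 are named after their values were seen, and Chd3os, Aurkb, Rpl26, Mir7115 and Mir324 for the size of their fold change. Alox12, a lipoxygenase, was at 26.2 and 22.9 FPKM in the ECp53KO libraries, against 17.6 and 13.8 FPKM in the Ctrl libraries, with a log2 fold change of 0.62. Naa38, a subunit of an N-terminal acetyltransferase that overlaps Tmem88, was at 85.3 and 51.8 FPKM against 48.6 and 43.8 (0.52). Chd3os, a transcript antisense to the Chd3 locus by its name, was at 3.62 and 2.91 FPKM against 1.56 and 1.57 (0.73 ± 0.21, SE), with a limma adjusted p of 0.864. Aurkb, a mitotic kinase, was at 0.371 and 2.45 FPKM against 4.06 and 1.93. Rpl26, a ribosomal protein gene, was at 20.5 and 0.000682 FPKM against 22.0 and 1.996. Mir7115 was listed at 613 FPKM in ECp53KO_170 and at 0 elsewhere, and Mir324, inside Acadvl, at 40.4 FPKM in Ctrl_182 and at 0 elsewhere.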
